A study of Mus musculus with 24 samples.

Results

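The proteasome is the protease complex that degrades proteins marked with ubiquitin. Its 20S core is a stack of alpha and beta rings with the cutting sites inside, and the 19S cap recognises ubiquitin, unfolds the substrate with a ring of ATPases and feeds it into the core. The core and cap together form the 26S proteasome, which turns over synaptic proteins in neurons. Under interferon, cells can replace the catalytic beta subunits with immunoproteasome subunits, whose products favour antigen presentation, and other activators (the PA28 and PA200 caps) can dock on the core instead of the 19S cap.

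The genes described here are the rows of the deposited count table whose symbol starts with Psm, then 1 letter from a to g, then a number and at most 1 further letter, and whose mean was at least 1 CPM (counts scaled by library total) over the 24 libraries. Of 49 matching symbols, 46 passed this minimum, out of 51733 genes in the table. Just inside it were Psmb9 at a mean of 1.64 CPM and Psme2 at 2.41 CPM. Outside it were Psmb11, the beta subunit of the thymus, at 0.30 CPM, Psma8, the alpha subunit of the testis, at 0.10 CPM, and Psme2b, a near-identical copy of Psme2, at 0.01 CPM. Because reads of Psme2 and Psme2b may not be told apart, the values of Psme2 are uncertain. The 46 members comprised 31 subunits of the 26S proteasome, 3 immunoproteasome subunits, 4 activators with 1 inhibitor, 3 assembly chaperones of the 19S cap and 4 assembly chaperones of the 20S core. Genes of the complex under other symbols, such as Adrm1 and Pomp, were outside the rule and were kept in a separate list of partners.

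The RNA came from hippocampi of male C57BL/6 mice aged 2 to 3 months, pooled within each mouse. Conditional knock-in (cKI) mice carried eIF2α A/A, in which the regulated serine of this translation initiation factor is alanine, and the floxed transgene fTg+, and expressed Cre from the CaMKIIα promoter, which is active in excitatory forebrain neurons. The titles of the control samples give standard CaMKIIα-Cre+, while the growth protocol also names Cre-negative controls, so that the controls carried Cre rests on the titles. Tagged ribosomes were pulled down with an anti-HA antibody (RiboTag; the labels do not say how the tagged allele was introduced). Mice were taken 1 h after fear conditioning or naive, and 3 mice of each genotype and state gave 1 immunoprecipitate (IP) library and 1 library of the whole lysate (input). Which of the weak and strong training protocols was used is not stated in the labels.

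Total counts were 28.8 to 43.5 M per library. Levels are given as CPM on library sizes scaled by the TMM method over all 24 libraries. No gene lengths were used, so levels are compared between samples and not between genes. The 8 excitatory neuron markers, among them Camk2a, were higher in IP than in input, with 8 of 8 past the threshold. All 10 microglia, 8 astrocyte, 8 oligodendrocyte, 8 vessel and 8 inhibitory neuron markers were lower, so the IP label matched these lists. Other lists were mixed. Of 6 dentate granule cell markers 2 were called higher and 0 lower, with Prox1 at a log2 fold change of -0.23. Of 7 choroid plexus and ependyma markers 5 were called lower and 1, Kl, higher, at 0.98. Eif2s1, which encodes eIF2α, averaged 52.8 ± 1.84 CPM in cKI and 45.4 ± 2.49 CPM in control IP libraries (SD, n = 6 mice each), and 38.6 ± 1.96 and 32.2 ± 1.25 CPM in the cKI and control inputs; gene counts cannot show the point mutation. In the level of the 26S subunits 3 libraries stood apart, replicate 2 of the naive cKI IPs, replicate 2 of the 1 h cKI IPs and replicate 2 of the naive control inputs, and the members' medians that move with them are given with and without them.

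Among the 46 members, 43 were higher in IP than in input and 3 were lower by edgeR's quasi-likelihood test, at a Benjamini-Hochberg adjusted p below 0.05 over 17453 genes. Of all genes tested, 42.8% were called higher and 43.1% lower. The median log2 fold change of the members was 0.59, and that of all genes was -0.01. All 31 subunits of the 26S proteasome were higher, with log2 fold changes of 0.49 (Psmc5) to 1.12 (Psmb5) and a median of 0.65. The 3 lower members were the immunoproteasome subunits Psmb8 and Psmb9 and the activator Psme4. Psmb9 had 0.51 to 1.43 TMM-scaled CPM in IP and 1.15 to 2.84 in input libraries. It therefore met the minimum of 1 CPM mainly through the inputs, the fraction where it was higher. Every IP library lay above every input library for 34 members and below every input library for 2, Psmb8 and Psme4; of all genes tested, 24.4% were separated upward and 23.4% downward. The IP holds RNA bound to tagged ribosomes, and the input holds RNA of the whole lysate. Cell content, RNA per cell, ribosome binding of a transcript and carryover in the pulldown cannot be told apart in this contrast.

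The promoters of the member with the largest rise and of the 3 that fell are printed here because these 4 genes mark the ends of the range. The windows are 300 bases from RefSeq (build GRCm38.p6), 250 before and 50 after the gene start, read 5′ to 3′ on the gene's strand; the build of the counts is not given in the sources used here. Capitals mark matches on either strand to TGACNNNGC, the core of the site bound by the stress factors Nrf1 and Nrf2, to CCAAT, the box bound by NF-Y, or to GAAA, any 2 bases and GAAA, the core of the interferon response site. Psmb5 is at chr14:54617946-54618245 on the minus strand, Psmb8 at chr17:34197945-34198244 on the plus strand, Psmb9 at chr17:34187281-34187580 on the minus strand and Psme4 at chr11:30771525-30771824 on the plus strand.
Psmb5: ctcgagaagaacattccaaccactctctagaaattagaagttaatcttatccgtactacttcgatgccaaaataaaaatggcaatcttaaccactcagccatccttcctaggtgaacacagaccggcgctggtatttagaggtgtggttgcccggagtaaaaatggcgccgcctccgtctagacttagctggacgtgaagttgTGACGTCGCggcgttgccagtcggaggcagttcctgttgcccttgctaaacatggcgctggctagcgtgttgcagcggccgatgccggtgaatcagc
Psmb8: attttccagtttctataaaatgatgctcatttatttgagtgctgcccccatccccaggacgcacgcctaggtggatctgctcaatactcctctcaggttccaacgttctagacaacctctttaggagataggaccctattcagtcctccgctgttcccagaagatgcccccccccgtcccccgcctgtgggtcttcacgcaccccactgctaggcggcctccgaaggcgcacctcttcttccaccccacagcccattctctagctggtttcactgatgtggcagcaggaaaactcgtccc
Psmb9: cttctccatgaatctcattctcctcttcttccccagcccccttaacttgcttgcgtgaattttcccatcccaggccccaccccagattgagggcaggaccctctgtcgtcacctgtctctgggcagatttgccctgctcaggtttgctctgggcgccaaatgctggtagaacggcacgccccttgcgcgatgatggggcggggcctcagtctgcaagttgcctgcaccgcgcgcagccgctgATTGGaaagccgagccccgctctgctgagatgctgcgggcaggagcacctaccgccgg
Psme4: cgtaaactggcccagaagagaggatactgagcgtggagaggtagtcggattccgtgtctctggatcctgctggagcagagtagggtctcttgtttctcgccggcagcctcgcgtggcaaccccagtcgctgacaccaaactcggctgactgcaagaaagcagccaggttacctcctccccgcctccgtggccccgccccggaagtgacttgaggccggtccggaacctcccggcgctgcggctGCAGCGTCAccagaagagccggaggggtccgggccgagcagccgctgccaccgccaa

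Psmb5 and Psme4, which changed in opposite directions, each held 1 match to TGACNNNGC. The Psmb9 window held 1 CCAAT match, read on the other strand as ATTGG, and the Psmb8 window held none of the 3 patterns. Windows were found for 39 of the 46 members, 42 in all. In total 9 patterns were searched on both strands, and their matches are given here as descriptions. TGACNNNGC was in 6 of the 42 windows (14.3%), those of Psmb5, Psmb6, Psmc6, Psmd9, Psmd12 and Psme4, against 12.4% of the 32851 windows of all genes. CCAAT was in 13 of the 42 windows, against 37.4% of all windows. GAAA, any 2 bases and GAAA was in 5 (11.9%), those of Psmb3, Psmd4, Psmd9, Psme1 and Psmg4, and in 3.44% of all windows. The looser TGANNNNGC, which contains every TGACNNNGC match, was in 24 windows (57.1%) and in 41.3% of all. GCCNNNTCA was in 14.3% of members' windows and 13.5% of all, GGCGGAAG in 4.76% and 2.57%, CACGTG in 9.52% and 7.15%, ACTACAA with any base and TCCC in 4.76% and 0.95%, and GATTGG, which overlaps CCAAT on the other strand, in 8 of the 42 and in 16.1% of all.

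**Figure D1:**
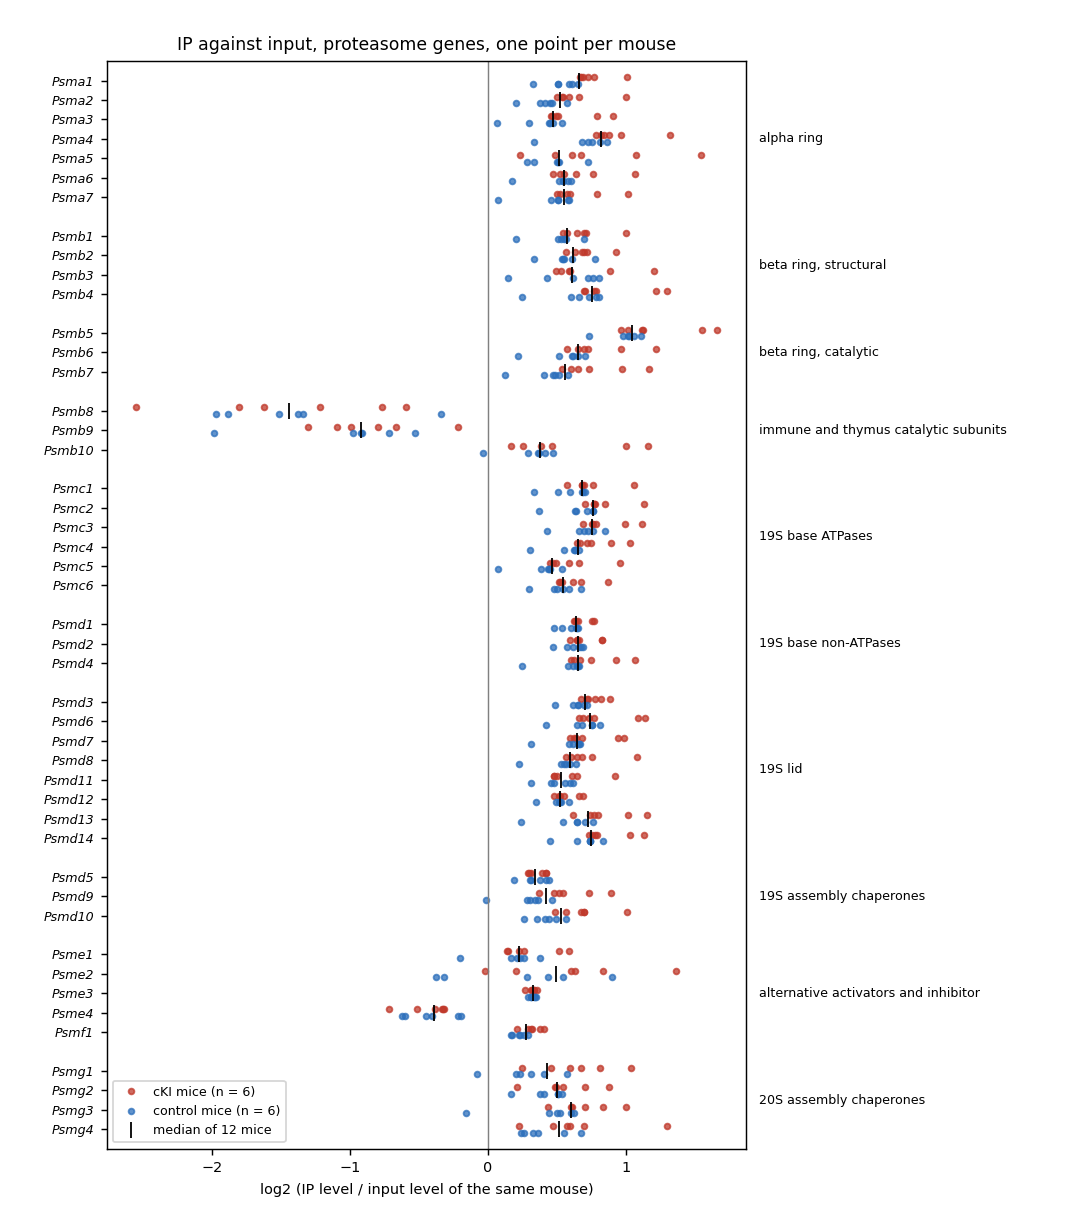
The log2 ratio of the IP level to the input level of the same mouse (x axis) for the 46 members (y axis, grouped by role), with 1 point for each of 6 cKI and 6 control mice and a tick at the median of 12. All 31 subunits of the 26S proteasome lie above 0 in all 12 mice, while Psmb8, Psmb9 and Psme4 lie below 0 in all 12.

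The 3 constitutive catalytic subunits sit in the inner beta rings. Psmb5, which carries the chymotrypsin-like site, had 33.9 CPM in its lowest, 37.1 in its median and 48.3 in its highest IP library, against 15.2, 17.8 and 20.9 CPM in its lowest, median and highest input. The IP and input libraries did not overlap, and Psmb5 was higher in IP by a log2 fold change of 1.12 with an SE of 0.05 (edgeR, adjusted p = 3.9e-15). Psmb6, the caspase-like subunit, ranged from 87.8 to 122 CPM in IP and from 52.7 to 77.8 CPM in input libraries, a log2 fold change of 0.68 ± 0.05. Psmb7, the trypsin-like subunit, ranged from 146 to 213 CPM in IP and from 94.8 to 141 CPM in input libraries, a log2 fold change of 0.61 ± 0.05.

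The immunoproteasome counterparts did not move as one group. Psmb8, which replaces Psmb5, had 1.39, 2.07 and 3.97 CPM in its lowest, median and highest IP library, against 4.36, 6.17 and 9.33 CPM in input libraries. All IP libraries were below all inputs, and the log2 fold change was -1.35 ± 0.18 (SE; adjusted p by edgeR = 4.4e-07). Psmb9, which replaces Psmb6, had 0.51, 1.16 and 1.43 CPM in the lowest, median and highest IP library and 1.15, 2.05 and 2.84 CPM in inputs. Its ranges overlapped between 1.15 and 1.43 CPM, and its log2 fold change was -0.88 ± 0.14 (SE; adjusted p by edgeR = 3.6e-06). These are low levels: an IP library held 47 to 125 counts of Psmb8 and 18 to 50 counts of Psmb9, so single values carry a large counting error. Psmb10, which replaces Psmb7, went the other way, with 22.8, 25.9 and 38.9 CPM in the lowest, median and highest IP library, against 17.3, 19.8 and 26.1 CPM in inputs, a log2 fold change of 0.45 with an SE of 0.08 (edgeR, adjusted p = 5.1e-05).

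Within each mouse, the IP to input difference was set for each constitutive subunit beside that of its counterpart. The log2 difference of Psmb5 exceeded that of Psmb8 in 12 of 12 mice, by 1.36 to 3.67 with a median of 2.53. For Psmb6 over Psmb9 the excess was 0.94 to 2.60 in 12 of 12 mice. For Psmb7 over Psmb10 it was -0.19 to 0.57, above 0 in 10 of 12 mice.

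**Figure D2:**
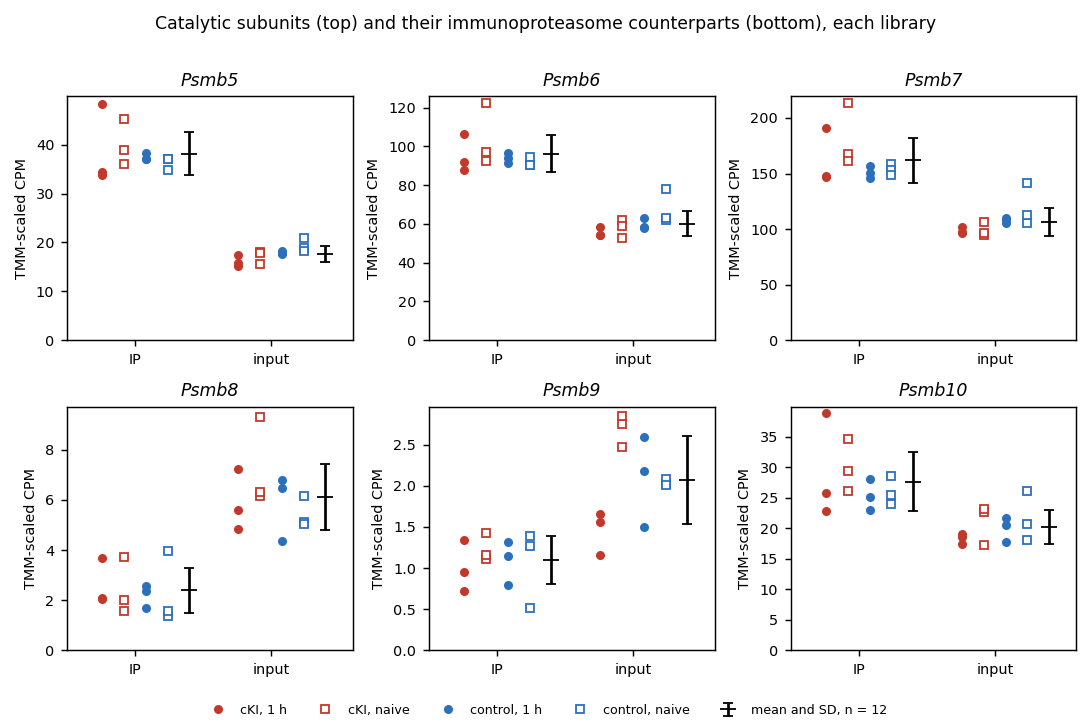
Level in each library (TMM-scaled CPM, y axes from 0) of the catalytic subunits Psmb5, Psmb6 and Psmb7 (top) and of Psmb8, Psmb9 and Psmb10 (bottom), IP left and input right, with the mean and SD of 12 libraries beside the points. Psmb5 sits at 33.9 to 48.3 CPM in IP and 15.2 to 20.9 CPM in input, and Psmb8 at 1.39 to 3.97 CPM in IP and 4.36 to 9.33 CPM in input.

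In RefSeq, Psmb8 and Psmb9 flank the peptide transporter gene Tap1 in the class II region of the histocompatibility complex, with Tap2 next to Psmb8. The list of antigen processing and interferon genes had 6 of 18 higher and 10 of 18 lower in IP, with a median log2 fold change of -0.48; its ends were Isg15, a ubiquitin-like modifier, at 1.53 and Gbp2, a guanylate-binding protein, at -2.61. The summed level of the 10 microglia markers was 28.8 to 42.3 CPM in IP and 478 to 654 CPM in input libraries, with a median log2 fold change of -4.74, and none of the 10 was at 0. For vessel markers the median was -4.02. The falls of Psmb8 and Psmb9 were smaller than these medians, and the part of such cells in them was not tested.

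The other subunits of the 20S core were all higher in IP. The 7 alpha ring subunits, which form the gated outer rings, had a median log2 fold change of 0.58, from 0.50 for Psma3 to 0.82 for Psma4. Psma4 ranged from 62.5 to 87.3 CPM in IP and from 34.9 to 50.6 CPM in input libraries. Psma5 was the alpha subunit whose groups overlapped, at 5.90 to 11.4 CPM in IP and 3.87 to 6.52 CPM in input libraries. The 4 structural beta subunits ran from 0.60 (Psmb1) to 0.78 (Psmb4). Psmb4 ranged from 179 to 257 CPM in IP and from 104 to 155 CPM in input libraries.

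In the 19S cap, the 6 ATPases of the base, which unfold the substrate, had a median log2 fold change of 0.67. Psmc3 was highest at 0.77 ± 0.04 (SE) and Psmc5 lowest at 0.49 ± 0.04 (SE). Psmc3 ranged from 182 to 233 CPM in IP and from 107 to 146 CPM in input libraries. The base scaffolds Psmd1 and Psmd2 and the ubiquitin receptor Psmd4 ran from 0.63 (Psmd1) to 0.67 (Psmd4). The 8 lid subunits had a median of 0.68, from 0.53 for Psmd12 to 0.78 for Psmd14, the deubiquitinase that removes ubiquitin from substrates. Psmd14 ranged from 108 to 142 CPM in IP and from 64.7 to 82.3 CPM in input libraries, so the groups were far apart. Psmd3, a lid scaffold, had log2 ratios of 0.49 to 0.89 among the 12 mice, with an SD of 0.10.

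Assembly factors were all higher in IP, with medians of 0.44 for the 19S and 0.51 for the 20S chaperones, beside 0.65 for the 26S subunits. The 19S chaperones were Psmd5 at 0.35, Psmd9 at 0.44 and Psmd10, also known as gankyrin, at 0.55. Psmg1 to Psmg4, the chaperones that build the alpha ring, had log2 fold changes of 0.46, 0.49, 0.56 and 0.52. Psmg4 ranged from 4.36 to 7.30 CPM in IP and from 2.96 to 4.67 CPM in input libraries, so its groups overlapped.

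The activators differed among themselves. Psme1 and Psme2, the subunits of the interferon-inducible PA28 cap, had log2 fold changes of 0.24 ± 0.05 and 0.44 ± 0.12 (SE; adjusted p by edgeR = 0.00028 and 0.0016). The IP and input libraries of both overlapped, and the ratio of Psme2 was above 0 in 9 of 12 mice. Psme3, the nuclear PA28 subunit, ranged from 127 to 139 CPM in IP and from 102 to 112 CPM in input libraries. Its log2 ratio was 0.27 to 0.36 in the 12 mice, with an SD of 0.02. Psme4, which encodes PA200, a nuclear activator, had 34.4, 43.9 and 46.3 CPM in its lowest, median and highest IP library, against 52.1, 56.3 and 60.2 CPM in inputs. Its IP libraries were all below its inputs, with a log2 fold change of -0.42 with an SE of 0.03 (edgeR, adjusted p = 8.5e-11). Psmf1, the inhibitor PI31, was higher by 0.27 ± 0.03 (SE).

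Of 17 tested partners of the proteasome, 13 were higher and 3 lower in IP, with a median log2 fold change of 0.34. The largest rise was that of Uchl5, a deubiquitinase of the cap, at 0.79, and the largest fall that of Nfe2l2, which encodes the transcription factor Nrf2, at -3.18. Among 21 tested ubiquitin and shuttle genes, 18 were higher and 1 lower, from 1.01 for the polyubiquitin gene Ubb to -0.10 for the activating enzyme Uba6. Among 14 cytosolic chaperones, 10 were higher and 2 lower, from 0.90 for Hsp90aa1 to -3.88 for Hspb8.

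With scaling by library totals alone the median of all genes was -0.31, the median of the members was 0.29, Psme1 and Psmf1 had log2 fold changes of -0.07 and -0.03, and Psmb10, Psmd5, Psme2 and Psme3 were no longer called. IP and input libraries also differed in what was read from the sample descriptions as the sequencing lane (inputs in lanes 4 and 5, IPs in lanes 5 and 6). With lane in the model 38 members were higher and 3 lower, and Psma5, Psmb10, Psme1, Psme2 and Psmg1 were not called.

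The mean over the 31 subunits of the 26S proteasome was then followed library by library, as the log2 deviation of each subunit from its own mean over the 12 libraries of a fraction. All but 3 libraries lay between -0.122 and 0.025. Replicate 2 of the naive cKI IPs lay at 0.269, with 31 of 31 subunits above their own mean. Replicate 2 of the 1 h cKI IPs lay at 0.131, with 26 of 31 above, and replicate 2 of the naive control inputs at 0.296, with 31 of 31 above. The mean deviation of 77 ribosomal protein genes was 0.315 in the first of these libraries, 0.044 in the second and 0.357 in the third. The mouse of the first library had the lowest input, at -0.122 with 0 of 31 subunits above their mean, and the mouse of the third had an IP at -0.067. The part of these library shifts in the genotype differences was not tested, and the median differences that move with these libraries are given below with and without them.

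**Figure D3:**
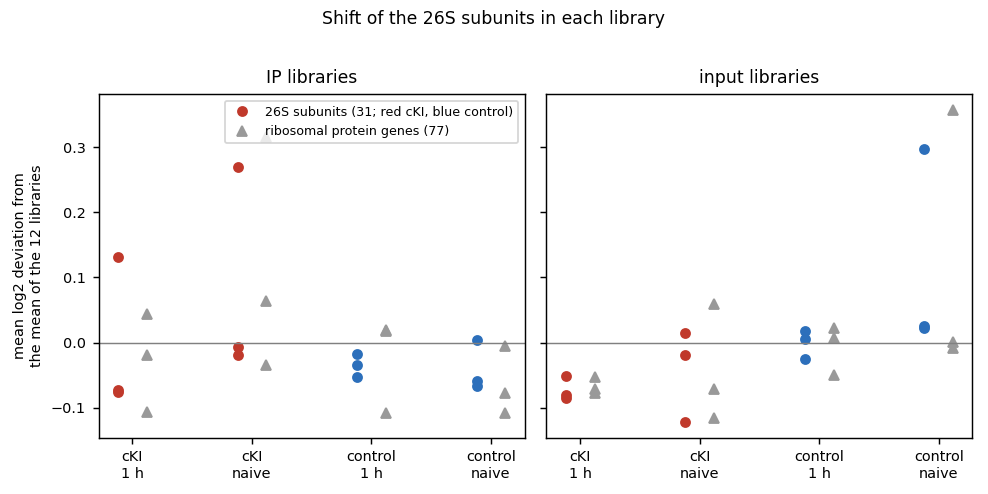
Mean log2 deviation of the 31 subunits of the 26S proteasome (circles, red cKI and blue control) and of 77 ribosomal protein genes (grey triangles) from their own mean over the 12 libraries of a fraction, IP left and input right, with 3 libraries per group. Single libraries at 0.269, 0.131 and 0.296 lie apart from the remaining ones.

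In IP libraries, cKI against control over both training states, 0 of 46 members passed the edgeR threshold, against 1.69% of all 15238 genes, and DESeq2 also called 0. At an unadjusted p below 0.05 there were 8 members, all higher in cKI, against 18.5% of all genes. The members' median log2 fold change was 0.09, with 45 of 46 positive, and that of all genes was 0.00. The 5 members of smallest p were Psmd9 at 0.19 ± 0.07, Psmf1 at 0.14 ± 0.05, Psmc5 at 0.16 ± 0.05, Psmg3 at 0.27 ± 0.10 and Psmd8 at 0.12 ± 0.06 (log2 fold change ± SE; edgeR adjusted p 0.15 to 0.25). Psmf1 had 30.9, 31.7 and 34.1 CPM in the lowest, median and highest cKI IP, against 26.8, 29.5 and 30.1 CPM in control IPs. The 6 cKI libraries were above all 6 control libraries for Psmf1, and likewise for Psma1 and Psmg3, 3 members in all, against 0.82% of all genes. Without replicate 2 of the naive cKI IPs the members' median was 0.05, and without both cKI IP libraries that stood apart it was 8.1e-05 with 23 of 46 positive; without replicate 2 of the 1 h cKI IPs alone it was 0.05. The background share also depends on single libraries: 258 genes were called over all, 52 without replicate 2 and 395 without replicate 1 of the naive control IPs, which gave the ends of the range over the 12 libraries, and 3 with lane in the model.

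In the inputs most members had negative values. By edgeR 0 of 46 members passed, against 3.15% of all 17232 genes; 17 had an unadjusted p below 0.05, 2 higher and 15 lower in cKI, against 20.5% of all genes. DESeq2 called 1, Psmb7 (DESeq2 adjusted p = 0.045), against 5.73% of the genes it tested. The median was -0.08 for the members, with 5 of 46 positive, and 0.00 for all genes. The smallest p was that of Psmb7, at 94.8, 97.1 and 107 CPM in the lowest, median and highest cKI input, against 106, 109 and 141 CPM in control inputs. Its groups overlapped slightly, and its log2 fold change was -0.17 ± 0.05 (SE; adjusted p by edgeR = 0.094). Next came Psmd13 at -0.13 ± 0.04, Psmc3 at -0.12 ± 0.04, Psmc1 at -0.11 ± 0.04 and Psmb5 at -0.14 ± 0.05 (log2 fold change ± SE; edgeR adjusted p 0.11 to 0.14). For 3 members, Psmc3, Psmd4 and Psmd13, all cKI inputs were below all control inputs, against 2.70% of all genes. Without replicate 2 of the naive control inputs the median was -0.05; without replicate 1 of that group Psmb7 passed (edgeR, adjusted p = 0.041), and without replicate 3 the ATPase Psmc4 passed (edgeR, adjusted p = 0.0497). Over all genes 543 were called, and 164 to 741 with 1 library left out, the ends being replicate 2 of the 1 h cKI inputs and replicate 2 of the naive control inputs, and 18 with lane in the model.

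Lane runs with genotype here, since all cKI inputs were in lane 4 and 4 of 6 control inputs in lane 5, and in IPs 4 of 6 cKI libraries were in lane 5 and all control libraries in lane 6. With lane in the model the medians were 0.17 in IP and -0.16 in input and 0 members were called in both fractions. The 1 h cKI IPs and the naive control inputs were the only groups spread over more than 1 lane. All values with lane in the model therefore rest on these groups, and each of them holds a library that stood apart. Lanes that hold 1 genotype alone give no within-lane value. Oligodendrocyte markers moved with genotype in the inputs, where 7 of 8 were called lower in cKI with a median log2 fold change of -0.31. Their summed level was 3491 to 4288 CPM in cKI and 3916 to 5639 CPM in control inputs. In IPs 2 of 8 were called lower, with a median of -0.30. Also called in inputs were 2 of 6 dentate granule cell markers, higher in cKI, and 2 of 8 inhibitory neuron and 2 of 8 astrocyte markers, lower in cKI. Of all 17232 genes, 199 were called higher and 344 lower. The medians of these lists were 0.17, -0.15 and -0.09. Each list also held values of the other sign, such as C1ql2 at -0.17, Erbb4 at 0.07 and Slc1a2 at 0.10. The part of these cells in the members' values was not tested. Among partners, ubiquitin genes and chaperones, those called in inputs were lower in cKI: the neuronal deubiquitinase Uchl1 at -0.34, and the chaperones Hspa8, Hsp90aa1, Hsp90ab1 and Hspb1, of which Hspb1 fell by 1.13.

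**Figure D4:**
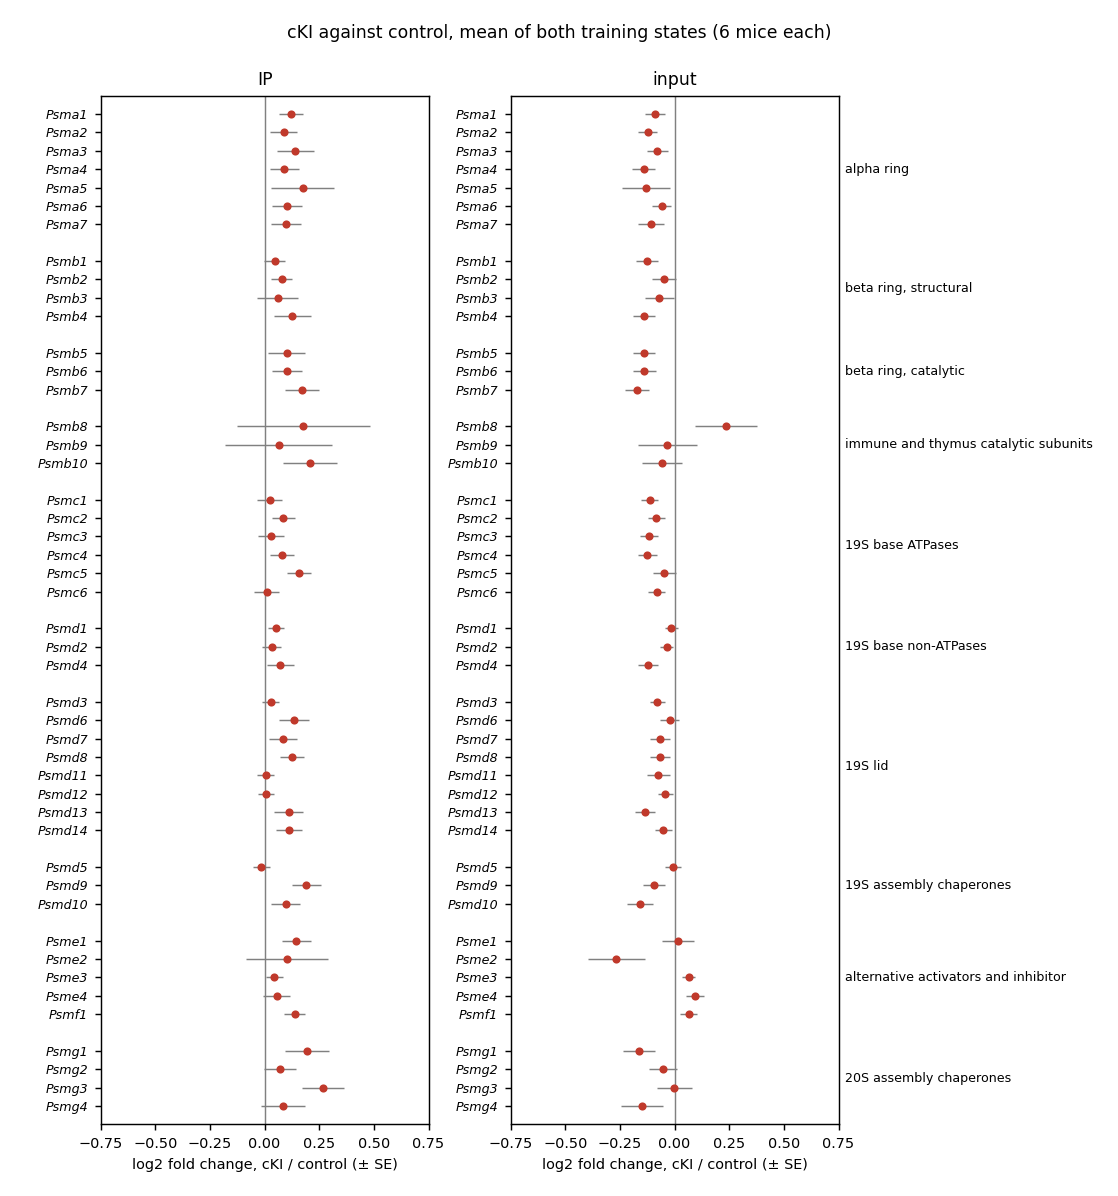
Log2 fold change of cKI against control, mean of both training states (x axis, ± SE), for each of the 46 members (y axis, grouped by role), IP left and input right, 6 mice of each genotype. In IP 45 of 46 values are positive and in input 5 of 46, and by edgeR 0 members passed the threshold in either fraction.

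Since the members' medians had opposite signs in IP and input, the IP to input ratio itself was compared between genotypes. By edgeR 0 of 46 members passed, against 0.0229% of all genes, and DESeq2 called 0. There were 24 members with an unadjusted p below 0.05, all higher in cKI, against 15.6% of all genes. The members' median was 0.19, with 43 of 46 positive, and the median of all genes was 0.02, with 9450 of 17453 positive. The median log2 ratio of the 31 subunits was 0.640, 0.850 and 0.672 in the 1 h cKI mice and 0.594, 1.06 and 0.678 in the naive cKI mice, against 0.618, 0.658 and 0.591 in the 1 h control mice and 0.610, 0.305 and 0.579 in the naive control mice. The 2 highest and the 1 lowest values were those of the mice with a library that stood apart; the other 9 lay between 0.579 and 0.678. Without the 3 libraries the members' median was 0.05, with 36 of 46 positive; with lane in the model it was 0.38, with 45 of 46 positive. The members of smallest p were Psmb7 at 0.36 ± 0.11, Psmd9 at 0.31 ± 0.09, Psma1 at 0.23 ± 0.08, Psmd13 at 0.27 ± 0.09 and Psmd10 at 0.28 ± 0.09 (log2 difference ± SE; edgeR adjusted p 0.22 to 0.24).

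The same contrast was made within each training state. In naive IPs 0 members passed by edgeR and by DESeq2, against 3.70% of all genes by edgeR; 4 had an unadjusted p below 0.05, against 22.3% of all genes, and the median was 0.15, or 0.05 without replicate 2 of the naive cKI IPs and 0.25 with lane in the model. Over all genes 564 were called, but 22 without replicate 2 and 40 without replicate 3 of the naive control IPs, 933 without their replicate 1, and 1 with lane. In naive IPs each genotype had its own lane, so lane and genotype cannot be told apart in this contrast. All 6 dentate granule cell markers had positive values in the same contrast, from 0.66 (Lct) to 1.37 (Tdo2) with a median of 1.27, although edgeR called 0 of 6. Their summed level was 874, 287 and 468 CPM in 1 h cKI and 1070, 848 and 1156 CPM in naive cKI IPs, against 835, 744 and 256 CPM in 1 h control and 859, 279 and 293 CPM in naive control IPs. In inputs the sum was 390 to 485 CPM, and none of the 6 markers was at 0. Prox1, the granule cell transcription factor, ranged from 29.6 to 235 CPM in IP and from 107 to 147 CPM in input libraries. The part of these cells in the members' IP values was not tested. In IPs taken 1 h after training 0 passed by either tool, against 0.0591%; 2 had an unadjusted p below 0.05, against 5.56%, and the median was 0.05, or -0.03 without replicate 2 of the 1 h cKI IPs and 0.09 with lane in the model. In naive inputs edgeR called 0, against 0.859%, and DESeq2 called 1, Psmd13 (DESeq2 adjusted p = 0.030), against 3.25%; 17 had an unadjusted p below 0.05, against 17.6%, and the median was -0.12, or -0.04 without replicate 2 of the naive control inputs and -0.08 without replicate 2 of the naive cKI inputs. Over all genes 148 were called there, and 52 to 143 with 1 library left out. In the same contrast 8 of 8 oligodendrocyte markers were called lower in cKI, with a median of -0.43 and summed levels of 4288, 4106 and 3674 CPM in naive cKI inputs, against 5592, 5639 and 5204 CPM in naive control inputs; their part in the members' values was not tested. Psmd13, a lid subunit, had 63.5, 61.5 and 62.9 CPM in naive cKI inputs, against 70.1, 86.1 and 69.2 CPM in naive control inputs. In inputs 1 h after training 0 passed by either tool, against 0.267%; 2, Psmb9 and Psmd10, had an unadjusted p below 0.05, against 8.98%, and the median was -0.06, or -0.04 without replicate 1 of the 1 h control inputs and -0.17 with lane in the model. Over all genes 46 were called there, and 3 to 207 with 1 library left out. In the 1 h inputs too each genotype had its own lane, so lane and genotype cannot be told apart.

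Training was compared within each genotype. In cKI IPs, 1 h against naive, 0 members passed by edgeR or DESeq2, against 0.0459% of all genes; 1, Psmb1, had an unadjusted p below 0.05, against 12.8%, and the median was -0.08, or 0.01 without replicate 2 of the naive cKI IPs and -0.16 both without replicate 2 of the 1 h cKI IPs and with lane in the model; for the 6 dentate markers the median was -1.02 there, with 0 of 6 called. In control IPs 0 passed by either tool, against 0.328%; 1, Psme4, had an unadjusted p below 0.05, against 10.3%, and the median was 0.01, or -0.01 to 0.03 with 1 library left out. In cKI inputs 0 passed by either tool, against 0.0174%; 1, Psmb9, had an unadjusted p below 0.05, against 5.27%, and the median was -0.02, or -0.04 to -0.01 with 1 library left out. In control inputs 0 passed by either tool, against 0.737%; 4 had an unadjusted p below 0.05, Psmd13, Psmb3, Psmb4 and Psma4, against 11.7%, and the median was -0.09, or -0.01 both without replicate 2 of the naive control inputs and with lane in the model. In that contrast 7 of 8 oligodendrocyte markers were called lower at 1 h, with a median of -0.46. Of 8 vessel markers 1, Cldn5, was called lower, at -0.70, but the median of the 8 was 0.006 and Slc2a1 was at 0.31. The part of these cells in the members' values was not tested. The IP to input ratio, 1 h against naive, had 0 members past the threshold by either tool, against 0.00573%, and 0 with an unadjusted p below 0.05, against 4.13% of all genes. The members' median was 0.04, with 34 of 46 positive, and that of all genes was 0.02, with 10078 of 17453 positive. The sign of the members' median rested on single libraries. It was -0.01 without replicate 2 of the 1 h cKI IPs (20 positive) and without replicate 2 of the naive control inputs (18 positive). It was -0.01 without the 3 libraries that stood apart (18 positive), and -0.06 with lane in the model (9 positive).

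The genotype by training interaction had 0 members past the threshold in both fractions by edgeR and DESeq2, against 0.0131% of all genes in IP and 0.0348% in input. The medians were -0.08 in IP, or 0.01 without replicate 2 of the naive cKI IPs, and 0.06 in input, or -4.6e-04 without replicate 2 of the naive control inputs; with lane in the model they were -0.18 and -0.01. For the 6 dentate markers the median interaction in IP was -1.47, with 0 of 6 called. At an unadjusted p below 0.05 there was 1 member in each, Psme4 in IP, against 9.34% of all genes, and Psmb9 in input, against 4.82%. Psme4 in IPs had 44.9, 46.3 and 43.5 CPM in 1 h cKI and 44.7, 36.5 and 39.6 CPM in naive cKI mice, against 41.1, 34.4 and 36.2 CPM in 1 h control and 44.4, 44.7 and 46.3 CPM in naive control mice. The interaction was 0.44 ± 0.12 (SE, edgeR unadjusted p = 0.0026, adjusted p = 0.28). Psmb9 in inputs had 1.15, 1.56 and 1.66 CPM in 1 h cKI and 2.75, 2.47 and 2.84 CPM in naive cKI mice, against 2.59, 1.499 and 2.17 CPM in 1 h control and 2.02, 2.08 and 2.01 CPM in naive control mice. In cKI inputs, 1 h against naive, its log2 fold change was -0.87 ± 0.19 (SE, edgeR unadjusted p = 0.00052, adjusted p = 0.41). The interaction was -0.93 ± 0.27 (SE; adjusted p by edgeR = 0.72). Both are named as members of smallest p and missed the threshold.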

How the data were processed

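The authors deposited raw counts of 24 libraries, each gene under a symbol and 1 Ensembl transcript. Cutadapt, Bowtie and DESeq2 stand in the submitters' processing notes with no roles; counting tool, build and strand setting are not given in the sources, so reads of overlapping or antisense genes may not be told apart. Per the labels' protocols, poly(A) libraries were made with a directional kit and read in pairs.

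In R 4.3.3, edgeR 4.0.16 (limma 3.58.1) fitted a mean per group with TMM scaling, the filterByExpr filter and the robust quasi-likelihood test. All 24 libraries were fitted together for IP against input and its ratio (17453 genes), and each fraction alone for genotype and training (15238 genes in IP, 17232 in input). Benjamini-Hochberg adjustment ran over all genes tested, with a threshold of 0.05; all 46 members passed the filter. DESeq2 1.42.0 was an alternative. One count was worth 0.023 to 0.035 CPM. The number after the flow cell name in the sample descriptions was read as the sequencing lane, and this reading is uncertain. The members and lists were chosen with earlier results of these data known. The naming rule covered all called members where there were at most 30, otherwise the ends of each class, and below 5 calls the 5 of smallest p. For genotype within a training state, for training and for the interactions, fewer than these 5 are named, so the names there are not complete. The tests were checked on simulated data.

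The labels pair each IP with the input of its mouse, and deviations from group means correlated at -0.05 to 0.41 within mice. The labels give no meaning to replicate numbers across groups. Same-numbered libraries correlated at -0.25 to 0.47 in IP, with 8 of 18 pairs above 0.1. In input they correlated at -0.18 to 0.12, with 1 of 18 pairs above 0.1. The libraries that stood apart all carried the same replicate number. Replicates are separate mice. No columns were left out.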

Additional observations from a re-analysis of the deposited data

How the results depend on the processing

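Each count of called members was repeated with DESeq2 (size factors or Wald test), unfiltered, with lane or a replicate block as a term and without each library; scaling by library totals alone and leaving out the libraries that stood apart were chosen after seeing the data. Of the repeated counts, 342 lay within 1.5 times of the value reported and 4 moved. The reported counts outside IP against input were all 0, so agreement there means only that 0 members were called again. The members' medians, which moved with single libraries and with lane, are not part of this tally. DESeq2 called 1 member, against 0 by edgeR, in inputs for cKI against control over both training states and 1 in naive mice. Leaving out each library gave 0 to 1 in the first of these, with 1 without replicate 1 and 1 without replicate 3 of the naive control inputs. With library totals alone the IP against input values of Psme1 and Psmf1 were -0.0658 and -0.0339. The TMM factors were 0.88 to 0.93 in IP and 1.08 to 1.14 in input libraries, so leaving them out lowers the IP against input values of all genes. Why the factors differ between the fractions was not tested. With the mouse as a replicate block 43 members were higher and 3 lower in IP, and 0 were called for the ratio. With the replicate number as a block 0 were called in each comparison within a fraction, so the block changed no call. Low counts limit Psmb8, Psmb9 and Psme2.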
